A study of Mus musculus with 3 samples.

Results

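B-1-like innate B cells were 394 of the 14302 barcodes kept from the mouse pancreas and of the 3134 B cells outside the plasma cell gate. Members were selected on measured transcripts. A member was a barcode of at least 1000 unique molecular identifiers (UMIs), with at most 30% of them mitochondrial, that passed every condition of the rule. It held at least 3 UMIs of Cd79a and Cd79b together, the signalling chains of the B cell receptor, and at least 2 UMIs of Bhlhe41, Zbtb32 and Zcwpw1 together. It held no UMI of Fcer2a (CD23, the low-affinity IgE receptor), of the CD3 genes Cd3d, Cd3e and Cd3g, or of Csf1r, the macrophage growth factor receptor. Fewer than 3 of the plasma cell genes Sdc1, Prdm1, Tnfrsf17, Derl3 and Mzb1 were detected. These measured values chose the cells, so the levels of the genes in the rule are a description and support nothing further.

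Live CD45+ cells were sorted from the pancreas of wild-type C57BL/6J mice. These were young adults of both sexes according to the study's methods. The controls received phosphate-buffered saline (PBS). The other groups received a single intraperitoneal injection of whole β-glucan particles (WGP), a particulate β-glucan from yeast, and were killed after 3 days (3-day WGP) or after 7 days (7-day WGP). The number and sex of the mice behind each library are not in the labels. With 1 library in each group no test was possible, every interval is a 95% exact interval for counting error only, and values given in a row follow the order PBS, 3-day WGP, 7-day WGP.

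B-1 cells are a self-renewing lineage of B lymphocytes, set down largely in fetal and neonatal life, that populate the peritoneal and pleural cavities and secrete natural IgM without prior immunization. They carry much surface IgM and little IgD, lack CD23, and their receptors are enriched for specificities to self lipids and microbial carbohydrates. Bhlhe41 is a transcription factor needed for B-1a cell development, Zbtb32 is a zinc finger repressor of B cells, and Zcwpw1 is a reader of histone methylation best known from meiosis. Follicular B cells, the recirculating majority with CD23 and IgD, served as the comparison, and 1355 follicular-like cells were taken as B cells with Fcer2a and no UMI of the 3 rule genes.

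The best known B-1a receptors bind phosphatidylcholine, a lipid of cell membranes, and are built from the heavy chain V genes Ighv11-2 and Ighv12-3, paired with the κ light chain V genes Igkv14-126 and Igkv4-91 in turn. The rule did not use these genes. The 3′ end of each germline coding sequence is shown 5′ to 3′ on its own strand (GRCm38, GENCODE M21), because these germline segments identify the receptors counted next, and the codon in capitals encodes the conserved cysteine at which the antigen-contacting CDR3 loop begins. Ighv11-2 lies on chromosome 12 (114048241 to 114048540, minus strand), Ighv12-3 on chromosome 12 (114366521 to 114366820, minus strand), Igkv14-126 on chromosome 6 (67896345 to 67896642, plus strand) and Igkv4-91 on chromosome 6 (68768555 to 68768854, minus strand), each stretch being V exon.
Ighv11-2: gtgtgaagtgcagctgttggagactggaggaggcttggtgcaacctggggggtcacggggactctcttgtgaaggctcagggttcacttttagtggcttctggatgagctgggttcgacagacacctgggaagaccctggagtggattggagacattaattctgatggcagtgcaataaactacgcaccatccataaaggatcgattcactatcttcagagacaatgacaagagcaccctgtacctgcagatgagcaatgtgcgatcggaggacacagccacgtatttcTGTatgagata
Ighv12-3: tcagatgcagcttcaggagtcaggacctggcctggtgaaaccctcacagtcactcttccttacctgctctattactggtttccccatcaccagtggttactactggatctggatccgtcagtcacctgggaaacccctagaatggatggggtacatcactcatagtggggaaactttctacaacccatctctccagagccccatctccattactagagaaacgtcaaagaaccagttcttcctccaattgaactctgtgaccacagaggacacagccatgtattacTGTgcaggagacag
Igkv14-126: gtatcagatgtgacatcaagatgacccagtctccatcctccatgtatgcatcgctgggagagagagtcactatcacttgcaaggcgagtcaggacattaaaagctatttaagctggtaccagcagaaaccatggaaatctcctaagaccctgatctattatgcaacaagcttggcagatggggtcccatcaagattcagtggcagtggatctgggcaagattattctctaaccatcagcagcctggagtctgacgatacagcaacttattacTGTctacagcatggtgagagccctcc
Igkv4-91: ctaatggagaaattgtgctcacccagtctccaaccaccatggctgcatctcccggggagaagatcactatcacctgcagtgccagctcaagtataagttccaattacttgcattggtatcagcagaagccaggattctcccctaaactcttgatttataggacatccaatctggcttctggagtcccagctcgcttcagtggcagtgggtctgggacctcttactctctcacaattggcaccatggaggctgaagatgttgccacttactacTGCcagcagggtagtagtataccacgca

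V gene transcripts of phosphatidylcholine receptors were found in 55 of the 394 members, or 13.96% (10.7 to 17.8). By library they were found in 35 of 208 members (16.8%, 12.0 to 22.6), 6 of 112 (5.36%, 1.99 to 11.3) and 14 of 74 (18.9%, 10.7 to 29.7). The share was lowest in the 3-day WGP library. Among follicular-like cells only 5 of 1355 held such a transcript, or 0.369% (0.120 to 0.859), and among T cells, which measure free RNA in the droplets, 6 of 2287, or 0.262% (0.0963 to 0.570). Members were deeper than both, with median UMIs of 11089, 8238 and 9162.5 against 3148, 3624 and 4014.5 in follicular-like cells and 3775, 4497 and 6601 in T cells.

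The contrast with follicular-like cells was also seen among cells in which a V gene was detected. A heavy chain V gene was seen in 74 members, and it was Ighv11-2 or Ighv12-3 in 24 of them (32.4%, 22 to 44.3). In follicular-like cells the same count was 2 of 249 (0.803%, 0.0974 to 2.87). A κ or λ V gene was seen in 144 members, and it was Igkv14-126 or Igkv4-91 in 37 (25.7%, 18.8 to 33.6), against 3 of 229 follicular-like cells (1.31%, 0.271 to 3.78). The few T cells with a light chain V gene held 1 of these in 6 of 18 cells (33.3%, 13.3 to 59.0), all Igkv14-126, so free RNA was itself rich in that transcript, at the low rate given above.

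Few members held both a heavy and a light chain of these receptors. Ighv11-2 and Igkv14-126 were seen together in 5 members and Ighv12-3 with Igkv4-91 in 1. The crossed pairs, Ighv11-2 with Igkv4-91 and Ighv12-3 with Igkv14-126, were seen in 0 members, which allows a share of up to 0.761% each at the level of cells with a UMI. Ighv12-3 was seen in only 4 members and Igkv4-91 in 7, so these counts cannot show whether members lack crossed pairs. Plasma-like cells from the same libraries held these V genes more often still, in 310 of 538 cells (57.6%, 53.3 to 61.8). They held 206 Ighv11-2 and Igkv14-126 pairs and 81 Ighv12-3 and Igkv4-91 pairs against 12 cells of each crossed kind, all in 3-day WGP. Ighv11-2 was the heavy chain V gene seen in the most members in PBS, in 11 of 208, and in 7-day WGP, in 6 of 74. In 3-day WGP it came after Ighv1-75, which was seen in 5 of 112 members against 3 for Ighv11-2. Among light chains Igkv14-126 came first in PBS, in 19 members, and Iglv1 came first in both WGP libraries, in 5 and 8 members against 4 and 7 for Igkv14-126.

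Members were almost purely IgM cells. Ighm, the constant region of IgM, made up 97.8%, 97.2% and 95.4% of their heavy chain constant region UMIs, against 75.1%, 77.4% and 75.6% in follicular-like cells. Ighd, that of IgD, made up 1.23%, 1.04% and 2.97% of those UMIs in members and 23.3%, 20.9% and 23.7% in follicular-like cells. Neither share overlapped between the classes in any library.
Ighm was the constant region with the most UMIs in 208 of 208, 110 of 112 and 72 of 74 members, and the other members were switched. Ighd exceeded 10% of a cell's heavy chain UMIs in 4.33%, 3.57% and 14.9% of members, against 78.8%, 78.9% and 82.5% of follicular-like cells. The λ light chain had the most UMIs in 16.8%, 16.1% and 12.2% of members and in 9.74%, 12.1% and 11.5% of follicular-like cells. Levels are given as CPM, the UMIs of a gene scaled to the UMIs summed over the class in a library. Free RNA carried some IgM in all droplets, with 330, 553 and 243 CPM of heavy chain in T cells, 93.7%, 98.0% and 96.7% of it Ighm, against 6009, 7547 and 5906 CPM in members.

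**Figure D1:**
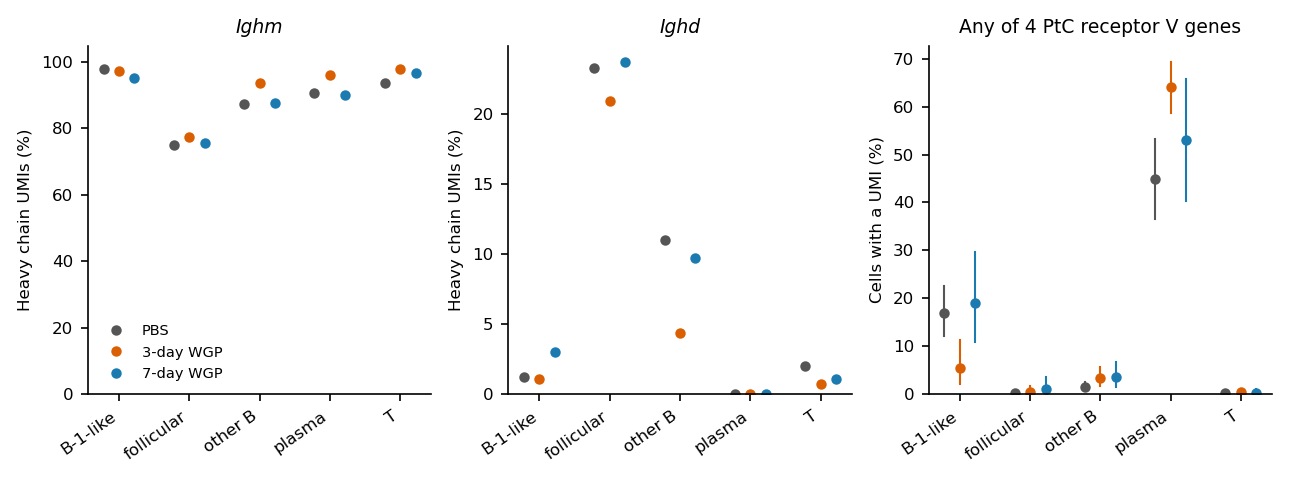
Share of heavy chain constant region UMIs that are Ighm (left) and Ighd (middle), and share of cells with a UMI of any of the 4 phosphatidylcholine (PtC) receptor V genes (right, bars are exact 95% binomial intervals), by cell class and library. B-1-like cells lie above 95% for Ighm and below 3% for Ighd in every library, and 5.36% to 18.9% of them hold a V gene of the 4 against at most 1% of follicular-like cells.

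The name was set beside genes outside the rule, in lists chosen with earlier results of these data known. Follicular-like cells were gated the opposite way on Fcer2a and the rule genes, so the contrast is a description. Of 22 genes reported for B-1 cells, 11 were high enough to compare with follicular-like cells, and 5 (Cd9, Plscr1, Cd300lf, S100a6 and Itgb1) were higher in members by a log2 of at least 1 in all 3 libraries, with 0 lower, where 1.65% of all 2484 genes compared were higher and 2.25% lower. The median log2 change was 1.25, 1.24 and 1.19 over all 22 listed genes and 2.29, 1.86 and 1.23 over the 11 compared, where that of all genes compared was -0.09, -0.07 and -0.06. Of 18 follicular genes compared, 0 were higher and 5 (Ccr7, Ighd, Bach2, Satb1 and Zfp318) were lower, with medians of -0.74, -0.90 and -0.56. Of 7 genes listed for age-associated B cells 2 were compared, Zeb2 and Sox5, and both were higher. Of 12 genes listed for marginal zone B cells 3 were compared, of which Plac8 was higher and Cr2 lower. Against all other non-plasma B cells 21 genes were higher and 26 lower of all 2434 compared. Within cells with Y genes 23 genes were higher and 37 lower of all 2421 compared, and the smallest change of Cd9 over the 3 libraries was -0.0036. These log2 changes had 10 CPM added to both sides, while log2 ratios given with an interval had nothing added.

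Surface markers used in flow cytometry were thinly sampled in RNA. Cd5, a scavenger-type receptor that marks B-1a cells, was seen in 31, 10 and 9 members, and Spn (CD43) in 53, 33 and 24. Itgam (CD11b) was seen in 37, 26 and 9 members, and no UMI of Cd5, Spn or Itgam was seen in 208 of the 394. After each cell was thinned to 2000 UMIs, Cd5 was left in 3.85%, 2.68% and 5.41% of members and in 0% of follicular-like cells, which allows up to 0.449%, 1.15% and 1.52%. T cells, which express Cd5, stood at 18.4%, 15.2% and 20.5% on the same footing. At this depth members could not be assigned to B-1a or B-1b.

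Markers of other cell types were present in members at differing levels. Plasma cell genes, whose number the rule limits, summed to 734, 979 and 771 CPM against 406, 400 and 412 CPM in follicular-like cells, most of it Mzb1, a chaperone of IgM assembly. Acinar genes summed to 145, 274 and 151 CPM against 345, 130 and 129 CPM. T cell genes summed to 7.51, 4.99 and 8.11 CPM, with 4 of the 7 listed at 0 in each library, of which the 3 CD3 genes were set to 0 by the rule. Macrophage genes summed to 96.0, 107 and 87.8 CPM against 22.6, 142 and 118 CPM in follicular-like cells, and Csf1r was at 0 by the rule. NK cell genes summed to 10.0, 24.1 and 131 CPM, with 72 UMIs in 1 member of 7-day WGP. At least 2 UMIs of Ncr1, S100a8, S100a9, C1qa or C1qb were held by 12, 11 and 2 members. Kept barcodes shared between libraries numbered 9, 1 and 5 for the 3 pairs of libraries, and 0 barcodes were members in 2 libraries, while the barcode of 1 PBS member was also kept in 7-day WGP.

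Members carried more S100a6, S100a4, Plscr1 and Cd300lf than follicular-like cells, and less Cr2, Satb1, Ighd and Ccr7. Of 2484 genes compared, in all 3 libraries 41 genes (1.65%) were higher by at least 1 on the log2 scale and 56 (2.25%) were lower, counting the genes of the rule, which had to differ. Among those outside the rule, S100a6 came first when genes were ranked by their smallest change over the 3 libraries with 10 CPM added. This small calcium-binding protein stood at 3020, 2601 and 2445 CPM in members and at 331, 310 and 275 CPM in follicular-like cells, log2 ratios of 3.19 (3.096 to 3.28), 3.07 (2.92 to 3.22) and 3.15 (2.97 to 3.34). Its relative S100a4 stood at 416, 350 and 253 CPM against 27.2, 49.5 and 42.7 CPM. Both were named for being higher in members in every library, and so was Ahnak, a giant scaffold protein, at 496, 366 and 309 CPM against 87.2, 77.6 and 94.4 CPM.

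Receptors and membrane proteins formed a further group of genes high in members. Plscr1, a phospholipid scramblase induced by interferon, stood at 84.3, 101 and 166 CPM against 8.45, 11.8 and 24.8 CPM. Cd300lf, an inhibitory receptor that binds membrane lipids, stood at 55.1, 60.7 and 103 CPM against 3.32, 2.95 and 9.94 CPM. Ccr1, a receptor of the chemokines Ccl3 and Ccl5, stood at 79.7, 68.2 and 79.7 CPM against 4.83, 11.1 and 4.97 CPM. These 3 genes were named for passing the fold in all 3 libraries, so that members were higher in each was set by that choice.
The integrin β1 chain Itgb1, an adhesion receptor, stood at 288, 225 and 238 CPM against 33.2, 49.5 and 73.6 CPM, and the tetraspanin Cd9 at 117, 110 and 104 CPM against 14.5, 22.9 and 38.8 CPM. The shared β chain of the IL-3, IL-5 and GM-CSF receptors, Csf2rb, stood at 71.3, 54.9 and 67.5 CPM against 6.34, 6.65 and 17.9 CPM. Il5ra, the specific chain of the IL-5 receptor, was closer, at 42.1, 34.9 and 54.0 CPM against 26.9, 17.0 and 12.9 CPM.

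Transcription factors and enzymes completed the higher group. Sox5, an HMG-box factor, stood at 73.4, 54.1 and 55.4 CPM against 11.2, 9.60 and 5.96 CPM. Zeb2, a zinc finger factor, stood at 235, 274 and 269 CPM against 92.0, 79.03 and 95.4 CPM, and Zbtb20, which sustains antibody-secreting cells, at 373, 368 and 480 CPM against 151, 170 and 196 CPM. Members were higher in each library. Ass1, which makes argininosuccinate in arginine synthesis, stood at 203, 226 and 142 CPM against 18.4, 18.5 and 22.9 CPM, and Ptpn22, a phosphatase that restrains antigen receptor signalling, at 198, 163 and 213 CPM against 47.7, 48.0 and 78.5 CPM. Rassf4, Ms4a6c, Plac8 and Gpr137b were the others among the 15 genes highest by their smallest change.

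Genes low in members included 5 of the 18 follicular genes compared, as given above, and genes outside that list. Cr2 was listed for marginal zone B cells. Cr2, complement receptor CD21, stood at 16.3, 14.97 and 14.9 CPM against 191, 191 and 240 CPM, log2 ratios of -3.55 (-4.06 to -3.09), -3.68 (-4.45 to -2.99) and -4.01 (-5.03 to -3.15). The chromatin organizer Satb1 stood at 16.7, 10.8 and 39.2 CPM against 370, 298 and 352 CPM. Ccr7, the chemokine receptor for entry into lymphoid tissue, stood at 63.8, 64.9 and 111 CPM against 409, 344 and 328 CPM. All 3 genes were named for being lower in members in every library.
Vpreb3, a chaperone-like partner of immunoglobulin chains, stood at 6.26, 54.1 and 16.2 CPM against 281, 314 and 246 CPM, and Neurl3, a ubiquitin ligase, at 4.59, 10.8 and 9.46 CPM against 138, 148 and 121 CPM. The B lineage factors were lower but well expressed, with Ebf1 at 427, 467 and 630 CPM against 1386, 1333 and 1355 CPM and Irf8 at 124, 177 and 215 CPM against 374, 453 and 569 CPM. Bach2, a repressor of plasma cell fate, stood at 18.4, 36.6 and 43.2 CPM against 119, 132 and 136 CPM. Gpr171, Lrrk2, Pxdc1, Smad7, Pxk, Tmem108, Dmxl1, Ms4a4c, Treml2 and Pag1 were the others among the 15 lowest, and the chemokine receptor Cxcr4 was lower too, at 41.3, 80.7 and 100 CPM against 227, 249 and 262 CPM.

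The follicular-like sums also held other cells, with erythroid genes at 2644 CPM in PBS and endothelial and fibroblast genes at 1084 CPM and neutrophil genes at 456 CPM in 7-day WGP, against 35.04, 118 and 5.40 CPM in the members of those libraries. The part of these transcripts in the comparison was not tested. The counts that follow stand beside 1.65% higher and 2.25% lower over all 2484 genes compared. Of 18 B cell transcription factors compared 1 was higher (Zbtb20) and 2 were lower (Ebf1 and Irf8). Of 14 migration and adhesion genes 2 were higher (Itgb1 and Cd9) and 2 were lower (Ccr7 and Cxcr4). Of 16 B cell receptor signalling genes compared only Ptpn22 passed the fold. Of 10 antigen presentation genes of MHC class II 0 passed it, but their medians of -0.59, -0.67 and -0.24 lay below those of all genes. Of 14 genes of ribosome production and Myc targets and of 7 NF-kB targets, 0 passed in either direction. Il10, the regulatory cytokine, was seen in 11, 9 and 8 members, at 7.93, 12.5 and 10.8 CPM. Follicular-like cells held Il10 at 2.11 CPM in PBS and at 0 CPM in both WGP libraries. Tlr9, the sensor of unmethylated DNA, was seen in 3, 1 and 0 members.

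**Figure D2:**
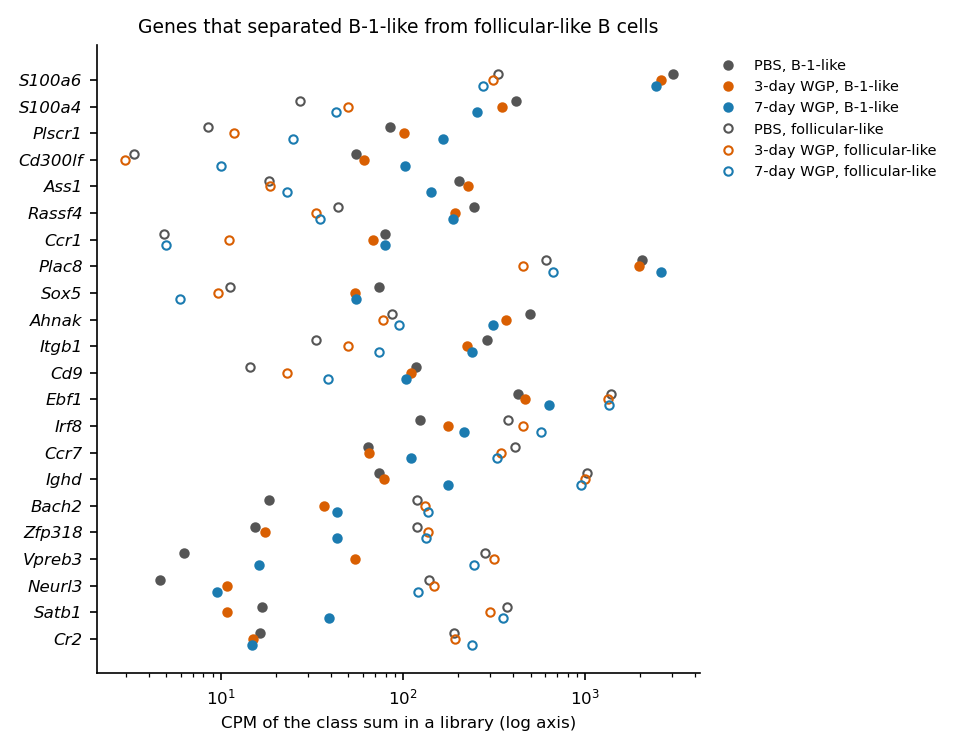
Level of 22 genes in B-1-like (filled) and follicular-like (open) cells, as CPM of the UMIs summed over the class in a library, on a log axis, with 1 point for each library. For every gene the 3 filled points lie on 1 side of the 3 open points, right of them from S100a6 to Cd9 and left of them from Ebf1 to Cr2. The 22 genes were taken from those past the fold in the same direction in all 3 libraries, which largely sets this separation.

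Levels changed by steps across the limit of the rule rather than at it, as a description of the cells just inside and just outside. The 114 members with exactly 2 UMIs of the rule genes had S100a6 at 1640 CPM and Ighd at 145 CPM, while the 280 members with 3 or more had 3130 and 77.8 CPM. The 207 B cells just outside, with 1 such UMI and no Fcer2a, had 1291 and 254 CPM. The 133 with 2 or more but with Fcer2a had 1612 and 386 CPM. B cells with neither the rule genes nor Fcer2a, 841 in number, had 530 and 569 CPM. Depth rose along the same series, from a median of 2755 UMIs with 0 rule gene UMIs to 5421 with 1, 6901 with 2 and 11550 with 3 or more, and its part in who was counted a member was not tested.

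**Figure D3:**
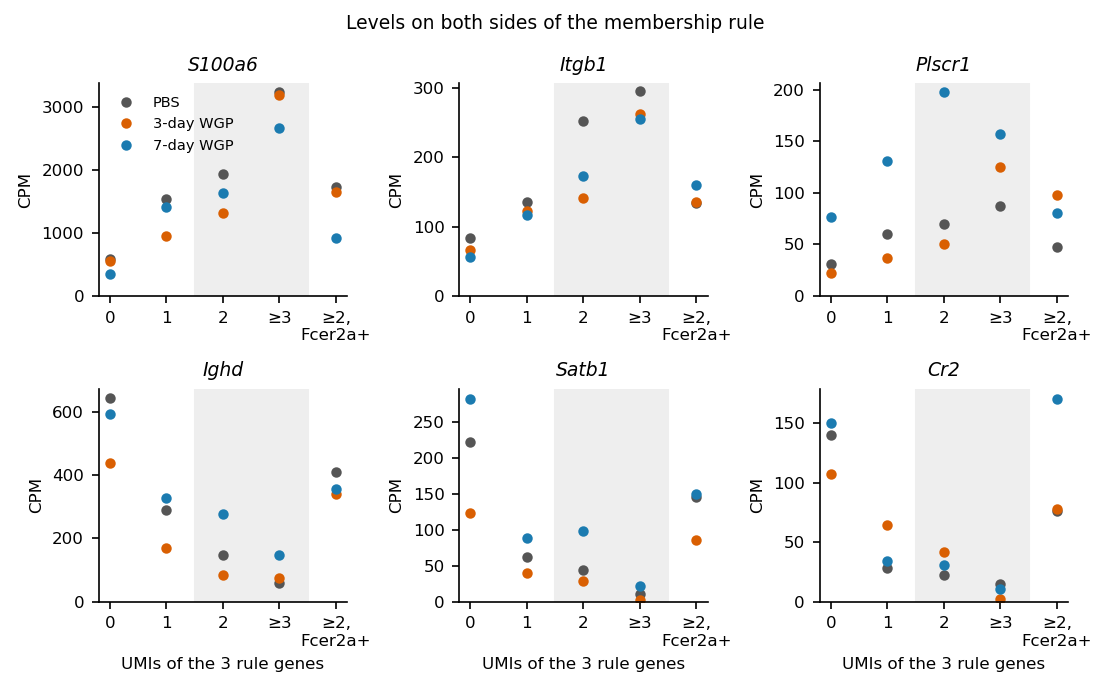
CPM of 6 genes in B cells by their UMIs of Bhlhe41, Zbtb32 and Zcwpw1 together, with the 2 grey positions inside the rule and the last position holding cells with 2 or more such UMIs and Fcer2a. Each point is 1 library. S100a6 climbs and Ighd declines in every library from 0 to 3 or more UMIs.

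Rule genes were unevenly shared among members. Bhlhe41 was seen in 172, 83 and 63 members, Zbtb32 in 148, 77 and 52, and Zcwpw1 in 111, 57 and 25. All 3 were seen together in 62 of 208, 22 of 112 and 12 of 74. Zcwpw1 stood at 325, 177 and 174 CPM, Bhlhe41 at 194, 155 and 182 CPM and Zbtb32 at 147, 137 and 153 CPM. At 3 days the log2 ratio of Zcwpw1 to PBS was -1.08 (-1.49 to -0.69) within Xist cells and -0.32 (-0.72 to 0.09) within Y cells. At 7 days it was -0.015 (-0.35 to 0.30) within Xist cells and -1.39 (-1.998 to -0.82) within Y cells. Members with Cd5 UMIs had 311 CPM of Zcwpw1 and those without had 250 CPM.

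The share of B-1-like cells depended on what it was a share of. Of all kept barcodes they were 208 of 5249 (3.96%, 3.45 to 4.53) in PBS, 112 of 4879 (2.30%, 1.89 to 2.76) in 3-day WGP and 74 of 4174 (1.77%, 1.39 to 2.22) in 7-day WGP. The log2 ratios to PBS were -0.79 (-1.13 to -0.45) and -1.16 (-1.56 to -0.77). Of non-plasma B cells they were 11.4% (10.0 to 13.0), 13.9% (11.6 to 16.5) and 14.6% (11.7 to 18.01), with log2 ratios of 0.28 (-0.06 to 0.62) and 0.36 (-0.05 to 0.75). Non-plasma B cells as a whole went from 34.7% of kept barcodes to 16.5% and 12.1%. The ratios among kept barcodes were closer to 0 within Y cells, at -0.41 (-0.95 to 0.12) and -0.53 (-1.12 to 0.06), and among barcodes of at most 10000 UMIs, at -0.32 (-0.82 to 0.17) and -0.47 (-1.03 to 0.07). With 1 library in each group these values describe the libraries.

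Sex transcripts divided the members unequally between libraries. Xist, the RNA of the inactive X chromosome, was seen without Y genes in 129, 20 and 25 members, and Y-linked genes without Xist in 59, 64 and 44. Cells with Xist were therefore 68.6%, 23.8% and 36.2% of the sexed members, against 16.4%, 33.7% and 36.5% of sexed follicular-like cells. Neither kind of transcript was seen in 20, 28 and 4 members and in 368, 136 and 73 follicular-like cells. Members with Xist had median UMIs of 13479, 14159.5 and 9768, and those with Y genes had 7409, 8161.5 and 9120.5. In PBS, B-1-like cells were 44.5% (38.7 to 50.4) of the non-plasma B cells with Xist and 7.24% (5.56 to 9.24) of those with Y genes. The part of depth in these shares was not tested. The labels do not say how many mice of each sex a library held, so sex, mouse and treatment cannot be told apart.
Among B cells with Xist the share went from 44.5% to 17.1% and 25.0%, log2 ratios of -1.38 (-2.14 to -0.69) and -0.83 (-1.51 to -0.21). Among B cells with Y genes it went from 7.24% to 18.1% and 17.1%, log2 ratios of 1.32 (0.79 to 1.86) and 1.24 (0.64 to 1.82). Directions were opposite in the cells of either sex at both times. Phosphatidylcholine receptor V genes were seen in 17.1% and 20.3% of Xist and Y members in PBS, in 10.0% and 3.13% in 3-day WGP, and in 24.0% and 18.2% in 7-day WGP.

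**Figure D4:**
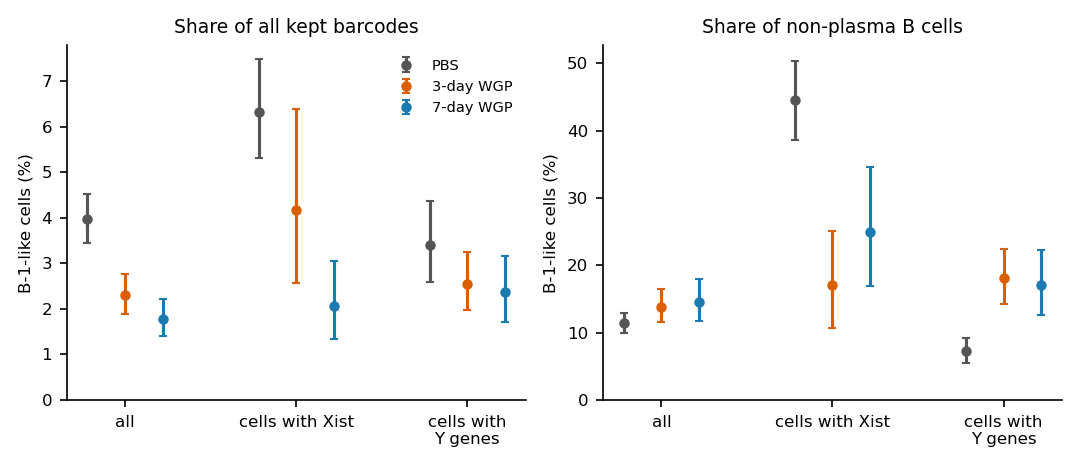
B-1-like cells as a share of all kept barcodes (left) and of non-plasma B cells (right), for all cells and for cells with Xist or with Y-linked genes, in each library, with exact 95% binomial intervals. Among B cells with Xist the PBS library is highest at 44.5%, and among B cells with Y genes it is lowest at 7.24%.

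At 3 days after WGP, members held more transcripts of the cell cycle. Against PBS, 57 of 2559 genes (2.23%) were higher by at least 1 on the log2 scale and 5 (0.195%) were lower. Of 13 cell cycle genes compared 8 were higher and 0 lower, with a median of 2.08 over the 13 and 1.75 over all 19 listed, where all genes compared had 0.05. Mki67, a protein of dividing nuclei, stood at 11.7 CPM in PBS, 146 CPM in 3-day WGP and 4.05 CPM in 7-day WGP. The chromatin protein Hmgb2 stood at 163, 909 and 168 CPM, and Ube2c, a ubiquitin-conjugating enzyme of mitosis, at 2.92, 115 and 5.40 CPM. The 3-day WGP library was the high one for each.
Few cells carried these transcripts. At least 10 of the 19 cell cycle genes were detected in 6 of 208 members in PBS (2.88%, 1.07 to 6.17), 11 of 112 in 3-day WGP (9.82%, 5.01 to 16.9) and 0 of 74 in 7-day WGP, which allows up to 4.05%. Those 11 cells held 88.0% of the cell cycle UMIs of the 3-day members, and 1 cell held 86 of the 176 Mki67 UMIs. They included 3 cells with Xist and 8 with Y genes. Among members of at most 10000 UMIs the change was absent for Ube2c and Birc5, an inhibitor of apoptosis in mitosis, at log2 values of -0.43 and -0.23. Follicular-like cells showed a median change of 0.895 in the same 13 genes at 3 days. At least 10 of the 19 genes were detected in 2 of 832, 8 of 323 and 0 of 200 follicular-like cells. The same held for 18 of 145, 57 of 329 and 5 of 64 plasma-like cells.

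Many of the remaining changes at 3 days came from single cells. C3, Col3a1, Sparc, Dcn, Igfbp7 and Col1a2, genes of fibroblasts and matrix, were among the 10 highest. Of the 431 UMIs of Col1a1, Col3a1 and Dcn in 3-day members 428 lay in 1 cell of 55692 UMIs, which also held 235 of the 237 C3 UMIs. The stress cytokine gene Gdf15 had 74 of 81 UMIs in 1 cell, Ier3 77 of 89, the chemokine Ccl3 62 of 92, and Igha, the IgA constant region, 54 of 67. With the cell of most UMIs left out for each gene and library, 18 of 2377 genes compared were higher, where 57 of 2559 had been. Of those 18, 17 were among the 57, and 8 genes were lower, including all 5.

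Apoe, Ctla4 and Egr3 were also past the fold at 3 days. Apoe, a lipid carrier protein, stood at 164 CPM in PBS and 405 CPM in 3-day WGP, seen in 116 of 208 and 70 of 112 members, and at 1.66 on the log2 scale within Xist cells against 0.31 (-0.05 to 0.66) within Y cells. Ctla4, an inhibitory receptor that B-1a cells transcribe, stood at 42.1, 94.8 and 63.5 CPM, log2 ratios of 1.17 (0.77 to 1.57) and 0.59 (0.06 to 1.10). At 3 days the ratio for Ctla4 was 1.23 (0.54 to 1.88) within Xist cells and 0.18 (-0.49 to 0.86) within Y cells. With the largest cell of Ctla4 left out, its change with 10 CPM added was 0.908. Egr3, an early gene of receptor signalling, stood at 17.5, 51.6 and 48.6 CPM. Its log2 ratio at 3 days was 0.44 (-1.0 to 1.68) within Xist cells and 1.33 (0.47 to 2.26) within Y cells. Dnajb1, a heat shock cochaperone, was lower, at 164 CPM in PBS and 69.0 CPM at 3 days, and by a log2 of 1.22 with 10 CPM added in follicular-like cells too.

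At 7 days after WGP, the interferon-induced genes Gbp2 and Igtp were higher. Against PBS, 25 of 2542 genes (0.983%) were higher and 9 (0.354%) were lower. The GTPase Gbp2 stood at 48.4, 39.1 and 184 CPM, seen in 81, 33 and 39 members, and its relative Igtp at 21.3, 13.3 and 81.1 CPM. The 7-day WGP library was the high one for both genes, and against PBS they were higher within Xist cells (log2 of 1.85 and 2.05) and within Y cells (2.01 and 1.67). Follicular-like cells also had Gbp2 higher at 7 days, at 22.9, 18.5 and 123 CPM.

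Of 15 follicular genes compared at 7 days, Ighd alone passed the fold, where 0.983% of all genes compared were higher. Ighd stood at 73.8, 78.2 and 176 CPM, a log2 ratio to PBS of 1.25 (0.91 to 1.58) at 7 days, and Cxcr4 at 41.3, 80.7 and 100 CPM, with 1.28 (0.82 to 1.72). Both remained far below the follicular-like level, given above. Lgmn, a lysosomal protease, stood at 25.9, 48.2 and 83.8 CPM, and Dtx1, a Notch target, at 22.9, 33.3 and 56.7 CPM. Within Xist cells Lgmn had a log2 ratio at 7 days of 2.60 (1.88 to 3.31) and Dtx1 of 1.91 (1.05 to 2.74). Within Y cells Lgmn had a log2 ratio of 0.60 (-0.29 to 1.51) and Dtx1 of 0.24 (-0.77 to 1.26). With its largest cell left out the change of Dtx1 was 0.85. Ighd was higher within Xist cells (1.41) and within Y cells (0.60). Wfdc17, a secreted antiprotease-like protein of myeloid cells, stood at 40.9, 64.9 and 153 CPM, but within Xist cells it had a log2 ratio of -1.45 and within Y cells 3.22.
Several of the largest changes at 7 days rested on 1 cell. Gzma had 40 of 41 UMIs in 1 member, Ccl5 41 of 47, Ifitm1 39 of 39 and Ccl4 54 of 65. Jchain, the joining chain of secreted IgM, stood at 261, 180 and 25.7 CPM, but 540 of the 625 UMIs in PBS lay in 1 member. Among the lower genes, Nr4a1, induced by antigen receptor signals, stood at 75.9, 66.5 and 29.7 CPM. Sdf2l1 of the endoplasmic reticulum stood at 78.0, 73.2 and 23.0 CPM, and Pa2g4, a growth regulator, at 112, 108 and 47.3 CPM. Within Xist cells the 7-day log2 ratios of Nr4a1, Sdf2l1 and Pa2g4 were -1.80 (-3.70 to -0.40), -1.72 (-3.06 to -0.65) and -2.33 (-3.80 to -1.19). Within Y cells they were -2.07 (-2.92 to -1.30), -0.91 (-2.16 to 0.24) and -0.56 (-1.32 to 0.17). With the largest cell of each gene left out, 11 of 2388 genes compared were higher, all among the 25.

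Only 7 genes passed the fold at both times. Ccl4, Apoe and Fcer1g were higher, and Ccl4 and Fcer1g had opposite signs in Xist and Y cells at both times. With the largest cell of each gene left out, the changes at 3 and 7 days were 0.47 and 0.20 for Ccl4 and 1.08 and 0.69 for Fcer1g. Those of Apoe were 1.20 and 1.44. Lmo7, Prkar2b, Ccnd2 and Xist were lower, and both comparisons share the PBS library. Ccnd2, cyclin D2 of early cell cycle entry, stood at 610, 279 and 255 CPM, and within Xist cells had log2 ratios of -1.57 (-1.91 to -1.24) and -1.16 (-1.50 to -0.83). Within Y cells they were -0.16 (-0.48 to 0.15) and -0.49 (-0.87 to -0.12).
Lmo7, an adhesion-associated LIM domain protein, stood at 106, 34.1 and 39.2 CPM, and Prkar2b, a regulatory subunit of protein kinase A, at 72.2, 24.9 and 20.3 CPM. Lmo7 was lower within Xist cells (-2.07 and -0.75) and within Y cells (-1.36 and -1.95). Prkar2b had log2 ratios of -0.90 (-1.78 to -0.13) and -1.40 (-2.64 to -0.38) within Xist cells. Within Y cells its ratios were -1.01 (-2.26 to 0.19) and -1.03 (-2.55 to 0.33). PBS held the most Xist cells, and how far that composition bears on these genes was not tested beyond the values within Xist and Y cells.

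**Figure D5:**
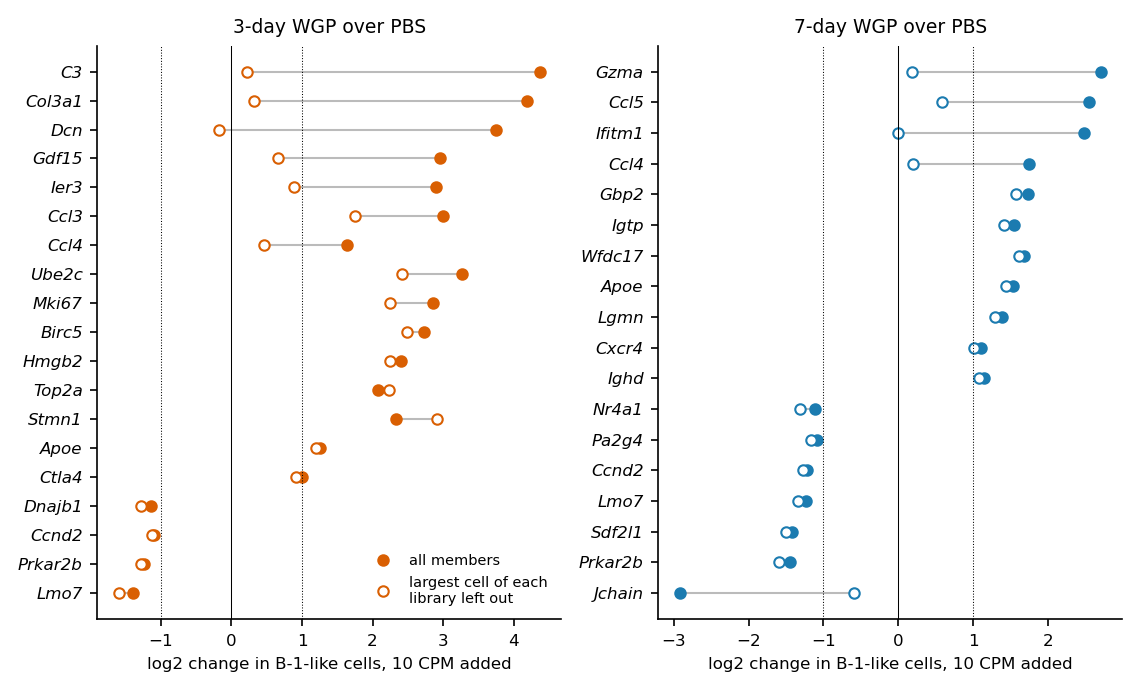
Change in B-1-like cells at 3 days (left) and 7 days (right) after WGP against PBS, as log2 of CPM with 10 CPM added, for all members (filled) and with the cell of most UMIs of that gene left out of each library (open). Dotted lines mark the fold limit of 1. C3, Col3a1, Dcn, Gzma, Ifitm1 and Jchain fall inside the fold limit, while Mki67, Hmgb2, Gbp2, Apoe, Ccnd2 and Lmo7 keep it.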

How the data were processed

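Groups came from the labels. The deposited values are raw UMI counts from 10x Genomics libraries, which the authors obtained with Cell Ranger 3.1.0 and mm10, without normalization or cell selection: 31053 genes by 6794880 barcodes per library, with 52464690, 56849043 and 48219246 UMIs. Members and gene lists were chosen with earlier results of these data known. Cells were classed and summed in Python 3.11.15 (numpy 2.4.6, scipy 1.17.1, pandas 2.3.3). No doublet caller was run, and the CD3 and Csf1r limits remove only some doublets. Genes needed 50 CPM in a side compared (for WGP also 20 UMIs) and passed the fold at an absolute log2 of 1 with 10 CPM added, against follicular-like cells in all 3 libraries. Shares carry Clopper-Pearson intervals and log2 ratios exact conditional binomial intervals, and a count of 0 allows 3 counts. Named genes were the 15 highest and 15 lowest against follicular-like cells, 10 each way at each time, those past the fold at both times, up to 4 of each list, any gene of the rule, B-1, follicular and immunoglobulin lists, the 5 V genes of each chain seen in the most cells, and Il10, Cxcr4, Il5ra, Tlr9 and Mki67. Alternatives changed the rule, depth, sex, minimum, pseudocount and scaling (TMM from edgeR 4.0.16 in R 4.3.3, scaling only). The method was tested on simulated class sums with counting error only, so that test says nothing about spread between cells. 1 gene is not reported here.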

Additional observations from a re-analysis of the deposited data

Results flagged for a closer look

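The share of B-1-like cells among non-plasma B cells changed in opposite directions in cells with Xist and in cells with Y-linked genes, and was taken up for that reason. At 3 days after WGP the log2 ratio to PBS was -1.38 (95% exact interval -2.14 to -0.69) with Xist and 1.32 (0.79 to 1.86) with Y genes. At 7 days it was -0.83 (-1.51 to -0.21) with Xist and 1.24 (0.64 to 1.82) with Y genes. The intervals cover counting error only, each group is 1 library, and both comparisons share the PBS library. Cells without a sex transcript are in neither group, and the part of depth in detecting one was not tested. The difference between the sexes was not tested, and mice cannot be told apart from sex.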

How the results depend on the processing

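No paired analysis was possible because the labels give no replicate numbers, and with 1 library in each group no replicate was left out. Directions below are against PBS, and the cause of a changed value was not tested unless the setting itself removes cells or genes.

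The share of members among kept barcodes (in the order PBS, 3-day WGP, 7-day WGP) was 5.73%, 3.505% and 3.09% with at least 1 UMI of the rule genes, 2.95%, 1.48% and 1.27% with at least 3, and 1.73%, 1.14% and 0.541% with cells thinned to 2000 UMIs (7-day log2 ratio -1.68). Without Zcwpw1 the 3-day share was 1.82%. Among barcodes of at most 10000 UMIs the PBS and 3-day shares were 2.36% and 1.89%, with log2 ratios of -0.32 and -0.47. Among barcodes of at least 5000 UMIs, chosen after seeing the data, shares were 6.56%, 3.39% and 2.33%. Within Xist cells the PBS and 3-day shares were 6.33% and 4.18%, with a 7-day log2 ratio of -1.61. Within Y cells the PBS and 7-day shares were 3.40% and 2.36%, with log2 ratios of -0.41 and -0.53. Of non-plasma B cells shares were 11.4%, 13.9% and 14.6%, and the log2 ratios reversed to 0.28 and 0.36.

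Against follicular-like cells, the main setting had 41 genes higher and 56 lower of 2484 compared. They numbered 23 and 37 of 2421 within Y cells and 19 and 23 of 2484 with 50 CPM added. Against all other non-plasma B cells they numbered 21 and 26 of 2434. Genes higher numbered 64 of 4959 with a minimum of 20 CPM and 75 of 15382 with none. At 3 days the main setting had 57 genes higher and 5 lower of 2559 compared. Genes higher numbered 26 of 2504 with a rule sum of at least 3 and 120 of 5270 with a minimum of 20 CPM. For the mean of CPM over cells they numbered 21 of 2545. Genes higher and lower numbered 34 and 8 of 2532 without Zcwpw1, 133 and 21 of 2773 within Xist cells, and 103 and 22 of 2698 within Y cells. They numbered 33 and 2 of 2559 with 50 CPM added and 150 and 8 of 8375 with no minimum. With the largest cell left out they numbered 18 and 8 of 2377. With at most 10000 UMIs, 20 of 2594 were lower. At 7 days the main setting had 25 genes higher and 9 lower of 2542 compared. They numbered 56 and 16 of 2662 with at most 10000 UMIs, 46 and 38 of 2684 within Xist cells, and 75 and 25 of 2666 within Y cells. With 50 CPM added they numbered 7 and 2 of 2542. They numbered 47 and 26 of 5294 with a minimum of 20 CPM and 47 and 35 of 7940 with none. Genes higher were 11 of 2388 with the largest cell left out. The last setting and the mean of CPM were chosen after seeing the data.

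Among named genes, Dcn at 3 days reversed to -0.26 (rule sum of at least 3), -0.24 (no Zcwpw1), -0.23 (at most 10000 UMIs), -0.17 (largest cell left out) and -0.22 (without the fibroblast-marked member). With at most 10000 UMIs, Ube2c was -0.43, Igha -0.81 and Birc5 -0.23 at 3 days, and Ccl4 -1.98 at 7 days. Igha was -0.42 with its largest cell left out, and Ccl4 at 7 days -0.27 without members holding other lineage markers. Within Xist cells, Ccl4, Fcer1g and Igha at 3 days were -0.11, -0.71 and -0.45, and Ifitm1, Ccl4, Wfdc17, Fcer1g and Xist at 7 days were -0.23, -0.48, -1.04, -1.18 and 0.033. Within Y cells, Eif2s3y at 7 days was -0.13, and the smallest change of Cd9 against follicular-like cells was -0.0036. Over all settings, 139 summary values stayed within the limits for an unchanged value, 65 moved and 2 reversed.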
